A study of Mus musculus with 3 samples.

Results

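Macrophages from muscle wounds filled with polycaprolactone (PCL), a synthetic polyester, were compared with those from wounds filled with urinary bladder matrix (UBM), a decellularised scaffold, inside each of 3 cell clusters named FP1, RP2 and RP3 in the deposited annotation. These clusters were chosen because each holds 50 or more cells of both libraries. FP1 held 1036 PCL and 99 UBM cells, RP2 held 58 and 640, and RP3 held 92 and 200. Together they make 2125 of the 4033 PCL and UBM cells, in a series of 4374 cells and 9 clusters. The cells had been sorted as macrophages from the quadriceps of mice with volumetric muscle loss, the surgical removal of a piece of muscle, made 1 week earlier. The third library, from wounds given saline, contributed 72, 38 and 68 cells to the same clusters and is given as a reference level. Nothing in the sources used here gives the strain, age, sex or genotype, or how many mice each library came from. The question asked of the data was which genes differed between the materials in the same direction in all 3 clusters, which differed in opposite directions, and which differed over the pooled cells because the clusters were mixed in unequal shares.

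Macrophages in a wound take on states that depend on the signals around them. Interleukin-4 and interleukin-13 act through the transcription factor STAT6 and raise genes of alternative activation, which are tied to repair and responses to parasites. Microbial and damage signals act through NF-kB and the C/EBP factors and raise cytokines such as interleukin-1 beta. Synthetic implants are known to draw a foreign body response, in which macrophages adhere to the material and fibrous tissue forms around it.

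All values are sums of unique molecular identifiers (UMIs, which mark single captured RNA molecules) over the cells of a library in a cluster, divided by the total and given as counts per 1000000 UMIs (CPM). Log2 ratios are PCL over UBM with 10 CPM added to both. Folds of single genes are plain ratios of CPM. Each has an exact 95% interval that covers counting error only. With 1 library for each condition there is no replicate check: no difference was tested, and "at least 2-fold" is a rule of size. The totals behind the CPM were 6522238 PCL and 793364 UBM UMIs in FP1, 342224 and 3881142 in RP2, and 580375 and 970420 in RP3. A count of 0 therefore allows up to 0.460 CPM with PCL and 3.78 CPM with UBM in FP1, 8.77 and 0.773 CPM in RP2, and 5.17 and 3.09 CPM in RP3, at a floor of 3 counts.

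The clusters held macrophage RNA in both libraries. All 10 macrophage markers were detected in each of the 6 sets of cells, with summed levels of 22611 against 11091 CPM (PCL against UBM) in FP1, 28990 against 15989 CPM in RP2 and 28664 against 29876 CPM in RP3. The list was thus higher with PCL in FP1 and RP2 and about level in RP3. The neutrophil list stood at 422 against 295 CPM in FP1, 245 against 76.0 CPM in RP2 and 581 against 87.6 CPM in RP3. Of its 11 genes in the data, PCL cells held UMIs of 10, 7 and 10 in FP1, RP2 and RP3, and UBM cells of 6, 8 and 8. Ly6g, a defining neutrophil marker, was at 0 in all 6 sets of cells. In FP1 most of the UBM sum was Mmp9, a list gene that stood lower with PCL. Without Mmp9 the list stood further apart there, higher with PCL. Of the PCL sums, S100a8 and S100a9 gave 219 and 126 CPM in FP1, 137 and 64.3 CPM in RP2, and 293 and 186 CPM in RP3. With UBM neither gene passed 10.1 CPM. The higher sums with PCL thus rest mainly on these genes. With S100a8 and S100a9 left out and Mmp9 kept, the rest of the list was lower with PCL in FP1 and RP2 and higher in RP3. The erythroid list stood at 283 against 2.52 CPM, 93.5 against 2.83 CPM and 121 against 23.7 CPM. NK-cell, T-cell and mast-cell lists reached at most 8.24 CPM. The median cell held 5530 PCL and 5618 UBM UMIs in FP1, 4834.5 and 5383 in RP2, and 5580 and 4193.5 in RP3. Mitochondrial genes took a median of 3.65% of a cell's UMIs with PCL and 2.76% with UBM in FP1, 3.73% and 2.21% in RP2, and 5.27% and 4.15% in RP3. Ribosomal protein genes took 13.1% against 19.3%, 13.5% against 21.2% and 11.2% against 14.3%. RP2 is weakly set apart from the other cells, with Cd5l at 3.55-fold as its leading gene, whereas RP3 is marked by Cd209d at 18.1-fold and Lyve1 at 10.3-fold. Of the 39 genes shared by the 3 clusters below, 7 are also among the 60 genes that define these clusters.

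A gene was counted where the library with more of it reached 50 CPM. In FP1 229 of 2826 such genes (8.1%) differed by at least 2-fold, 145 of them higher (5.13%) and 84 lower (2.97%) with PCL. In RP2 161 of 2604 (6.18%) did, 102 higher (3.92%) and 59 lower (2.27%), and in RP3 221 of 2815 (7.85%), 171 higher (6.07%) and 50 lower (1.78%). The balance of higher and lower genes moved with the scaling. Scaled by the trimmed mean of M values, the counts were 117 higher and 97 lower in FP1, 77 and 105 in RP2, and 91 and 68 in RP3. Scaled by the median of ratios, they were 115 and 97, 81 and 84, and 88 and 73. With the total taken without ribosomal protein genes and Malat1, FP1 had 131 and 129 and RP2 97 and 134. Leaving out, for each gene, the cell with most of its UMIs gave 190 and 59 in FP1 and 80 and 89 in RP2. The 3 scalings moved the median of all genes by −0.05 to −0.20 on the log2 scale, with the largest shift in RP3 by the median of ratios.

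A set of 39 genes differed by at least 2-fold in the same direction in all 3 clusters. Of the 2195 genes that reached 50 CPM in each cluster, 30 (1.37%) were at least 2-fold higher with PCL in all 3 and 9 (0.41%) at least 2-fold lower. A further 40 were at least 2-fold higher and 9 lower in exactly 2 clusters, and 121 higher and 56 lower in exactly 1. Most of the genes past 2-fold in 1 cluster kept the sign of their difference in the others: 37 of 43 higher in FP1 alone, 17 of 23 in RP2 alone and 41 of 55 in RP3 alone. For the lower genes these were 13 of 24, 11 of 17 and 7 of 15. Over all 2195 genes, 37.4% lay above 0 in all 3 clusters and 18.3% below. At the edge of the rule, Ezr at 1.00, Slc11a1 at 1.04 and Ankrd11 at 1.05 had the smallest log2 ratios still inside, and Prdx1 and Slc39a1 at 0.98 were the nearest outside. Among the lower genes Tnip3 (−1.02) lay just inside and Arg1 (−0.96) just outside, each by its weakest cluster. With clusters assigned again without the named and defining genes, 15 of the 30 higher and 4 of the 9 lower genes were still in the set. Under every alternative of processing 9 higher genes (Thbs1, Cebpb, Tsix, S100a8, Clec4n, Hmox1, AY036118, Pla2g7 and Ms4a6b) and 3 lower genes (Mgl2, Ccl8 and Retnla) kept their place.

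**Figure D1:**
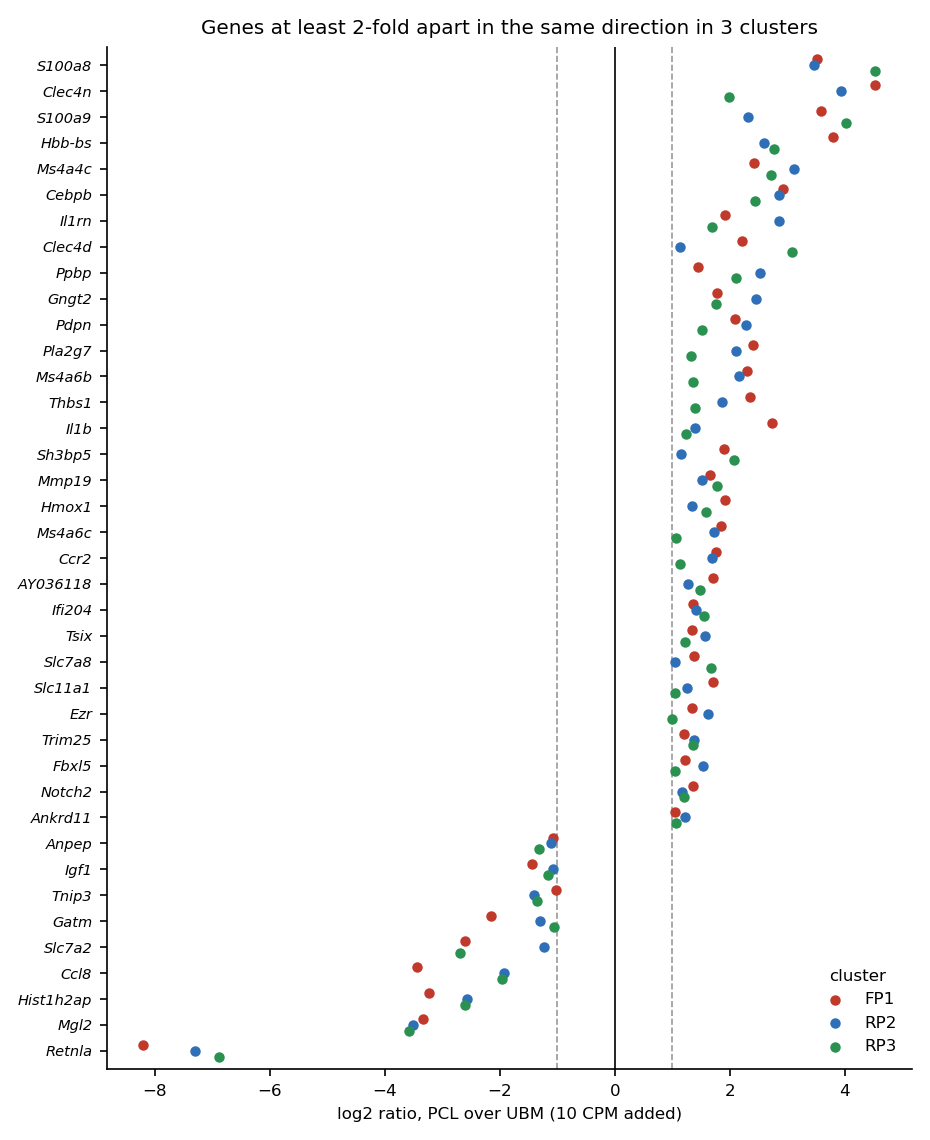
The x axis gives the log2 ratio of PCL over UBM (10 CPM added) for the 39 genes that differed at least 2-fold in the same direction in all 3 clusters. Each dot is 1 cluster (FP1 red, RP2 blue, RP3 green, set apart vertically for legibility only), dashed lines mark 2-fold, and Retnla lies farthest out, between −8.20 and −6.89.

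The start regions of 3 of these genes are shown because C/EBP and STAT6, among the factors named above, have known motifs that can be read in them. The sequences are the 250 bases before the RefSeq start on GRCm38.p6, on the strand of the gene, with matches to TTGCNNAA (C/EBP) or to TTC and GAA with any 4 bases between them (STAT6) in capitals. Both strands were searched. Retnla, lower with PCL in all 3 clusters, lies at chr16:48842359-48842608 on the plus strand. Mgl2, also lower with PCL, lies at chr11:70130107-70130356 on the plus strand, and S100a9, higher with PCL, at chr3:90695722-90695971 on the minus strand.
Retnla: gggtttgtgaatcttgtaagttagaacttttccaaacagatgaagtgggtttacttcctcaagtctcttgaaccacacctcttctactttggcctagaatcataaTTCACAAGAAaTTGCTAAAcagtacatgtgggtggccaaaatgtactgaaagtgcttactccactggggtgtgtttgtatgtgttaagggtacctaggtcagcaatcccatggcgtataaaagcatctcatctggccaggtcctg
Mgl2: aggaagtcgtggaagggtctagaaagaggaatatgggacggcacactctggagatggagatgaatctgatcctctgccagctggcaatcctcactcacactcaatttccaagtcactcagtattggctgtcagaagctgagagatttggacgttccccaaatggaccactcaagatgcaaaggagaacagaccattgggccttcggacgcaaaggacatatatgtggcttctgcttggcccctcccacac
S100a9: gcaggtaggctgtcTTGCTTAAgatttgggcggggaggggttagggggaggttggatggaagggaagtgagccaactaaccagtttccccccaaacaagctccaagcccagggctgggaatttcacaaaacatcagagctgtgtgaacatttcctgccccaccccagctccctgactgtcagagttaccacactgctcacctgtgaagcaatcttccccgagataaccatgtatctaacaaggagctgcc
Retnla holds a STAT6 match, TTCACAAGAA, that begins 145 bases before the start, and a C/EBP match, TTGCTAAA, that begins 134 bases before it. S100a9 holds a C/EBP match, TTGCTTAA, 236 bases before its start, and Mgl2 neither motif in this window. Over windows from 250 bases before to 50 after the start, 10.8% of 32851 RefSeq windows hold the C/EBP letters and 6.95% the STAT6 letters. Of the 39 genes, 22 of the 30 higher and 7 of the 9 lower ones had a window. The C/EBP letters were in those of 3 higher genes (AY036118, Hbb-bs, S100a9) and 1 lower gene (Retnla), and the STAT6 letters in those of 2 higher genes (Il1rn, Ms4a6b) and Retnla. A match describes the letters and says nothing of binding.

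Cebpb, which encodes C/EBP beta, a transcription factor of inflammatory and myeloid genes, was over 5-fold higher with PCL in all 3 clusters. It lies at chr2:167688915-167690418 on the plus strand (GRCm38). Cebpb stood at 2410 CPM with PCL, 310 CPM with UBM and 1251 CPM with saline in FP1. In RP2 it stood at 1969, 263 and 974 CPM, and in RP3 at 2324, 421 and 2163 CPM. PCL was the highest of the 3 libraries in every cluster and UBM the lowest, with saline between them. The fold of PCL over UBM was 7.77 (6.85 to 8.85) in FP1, 7.49 (6.79 to 8.27) in RP2 and 5.51 (4.93 to 6.18) in RP3. The log2 ratios of 2.92, 2.86 and 2.44 stayed between 2.12 and 2.99 under all alternatives of processing. The 5 other clusters with cells of both libraries showed the same order, from 1281 against 138 CPM in R3 to 4402 against 600 CPM in F2.

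C-type lectin receptors of innate immunity were among the shared higher genes. Clec4n encodes Dectin-2, a receptor for fungal mannans (chr6:123229843-123247021, plus strand). It stood at 833 CPM with PCL, 26.5 CPM with UBM and 342 CPM with saline in FP1, at 324, 11.9 and 271 CPM in RP2 and at 427, 101 and 194 CPM in RP3. PCL was again highest and UBM lowest in every cluster. The fold was 31.5 (20.6 to 50.9) in FP1, 27.4 (19.2 to 39.5) in RP2 and 4.23 (3.34 to 5.4) in RP3. Clec4d, which encodes a related lectin of the same gene cluster, ranked the clusters differently: its log2 ratio was 2.21 in FP1 and 1.14 in RP2 but 3.08 in RP3, where it stood at 276 CPM with PCL and 23.7 CPM with UBM.

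The interleukin-1 system stood higher with PCL on both its sides, the cytokine and the antagonist. Il1b (chr2:129364570-129371139, minus strand) encodes interleukin-1 beta. Its levels were 434 CPM with PCL, 56.7 CPM with UBM and 418 CPM with saline in FP1, then 120, 39.4 and 305 CPM in RP2 and 145, 55.6 and 37.2 CPM in RP3. PCL exceeded UBM in each cluster, but saline was above PCL in RP2 and below UBM in RP3. The folds were 7.65 (5.70 to 10.5), 3.04 (2.10 to 4.31) and 2.60 (1.83 to 3.73), and in RP3 26.2% of the PCL UMIs came from 1 cell. Il1rn (chr2:24336853-24351494, plus strand), which encodes the receptor antagonist, stood at 471 CPM with PCL, 117 CPM with UBM and 321 CPM with saline in FP1. In RP2 its levels were 307, 34.0 and 92.0 CPM, and in RP3 82.7, 18.5 and 48.4 CPM. Here the order PCL, saline, UBM held in all 3 clusters, with folds of 4.02 (3.27 to 5.0), 9.02 (6.91 to 11.8) and 4.46 (2.55 to 8.14). Ppbp, a precursor of neutrophil-attracting chemokines that also defines FP1, had log2 ratios of 1.45, 2.53 and 2.10. The RP2 value of Ppbp fell as low as 0.14 under the alternatives of processing, and 1 UBM cell gave 30.6% of its UBM UMIs there.

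Hmox1, the haem-degrading enzyme haem oxygenase 1 (chr8:75093621-75100589, plus strand), was at similar levels in the 3 clusters with PCL. It stood at 1401 CPM with PCL, 362 CPM with UBM and 111 CPM with saline in FP1, at 1242, 485 and 179 CPM in RP2 and at 1470, 484 and 674 CPM in RP3. PCL was the highest library throughout, and saline was below UBM in FP1 and RP2. The folds were 3.87 (3.44 to 4.37), 2.56 (2.30 to 2.85) and 3.03 (2.71 to 3.40). Slc11a1, the metal transporter of the phagosome, had log2 ratios of 1.70, 1.26 and 1.04, and Fbxl5, an iron-sensing ubiquitin ligase component, 1.23, 1.53 and 1.05. Over the iron and haem list, 4 of 13 measured genes were at least 2-fold higher and 3 lower in FP1, 2 and 2 of 13 in RP2, and 4 and 1 of 17 in RP3. For all genes measured at 10 CPM, the background of these list counts, 3.19% were higher and 2.41% lower in FP1, 2.94% and 2.65% in RP2, and 3.85% and 1.15% in RP3. Tfrc, the transferrin receptor through which cells take up iron, lay the other way, with log2 ratios of −1.37, −1.47 and −1.83.

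Genes of matrix contact and the cell surface formed another part of the shared set. Thbs1 (chr2:118111876-118127133, plus strand) encodes thrombospondin 1, a matrix protein that can activate latent TGF-beta. It stood at 813 CPM with PCL, 151 CPM with UBM and 262 CPM with saline in FP1, at 701, 185 and 116 CPM in RP2 and at 272, 97.9 and 33.5 CPM in RP3. The PCL library was highest in all 3 clusters, by 5.37-fold over UBM (4.49 to 6.50) in FP1, 3.80-fold (3.27 to 4.41) in RP2 and 2.78-fold (2.14 to 3.63) in RP3. Pdpn, which encodes the membrane mucin podoplanin (chr4:143267431-143299564, minus strand), was 4.58-fold higher (3.67 to 5.78), 5.52-fold higher (4.34 to 6.97) and 4.18-fold higher (2.19 to 8.41), from PCL levels of 468, 316 and 60.3 CPM. Pdpn is a marker of FP1, yet its difference was of like size in the other clusters. Mmp19, a matrix metalloproteinase, had log2 ratios of 1.65, 1.51 and 1.78, but its RP2 value fell as low as 0.11 under the alternatives of processing. Ezr, which links actin to the membrane, had 1.35, 1.61 and 1.00, and the receptor gene Notch2 1.37, 1.18 and 1.21.

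The shared higher genes included several known from monocytes, the blood precursors of many wound macrophages, though the monocyte marker list as a whole was divided. Of its 12 genes 7 lay above 0 in all 3 clusters, while Chil3, for one, lay below 0 in each. Ms4a4c stood at 84.2 CPM with PCL, 7.56 CPM with UBM and 86.0 CPM with saline in FP1, at 105, 3.35 and 48.4 CPM in RP2 and at 143, 13.4 and 22.3 CPM in RP3. Its folds were 11.1 (5.08 to 30.5), 31.4 (16.3 to 64.5) and 10.7 (5.91 to 20.9). Ms4a6b had log2 ratios of 2.30, 2.17 and 1.35, and Ms4a6c 1.85, 1.73 and 1.07. Ccr2, the chemokine receptor of inflammatory monocytes, was at 157 against 39.1 CPM in FP1, 134 against 34.8 CPM in RP2 and 165 against 70.1 CPM in RP3. In FP1 and RP3 saline was above PCL, at 221 and 294 CPM. The log2 ratio of Ccr2 in RP2 fell as low as 0.09 under the alternatives of processing. The summed monocyte list stood at 3729 against 3127 CPM, 2116 against 1147 CPM and 1394 against 1240 CPM, and its part in these differences was not tested. Pla2g7, a phospholipase that degrades platelet-activating factor, had log2 ratios of 2.41, 2.11 and 1.32, and Gngt2, a G-protein gamma subunit, 1.77, 2.46 and 1.75.

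**Figure D2:**
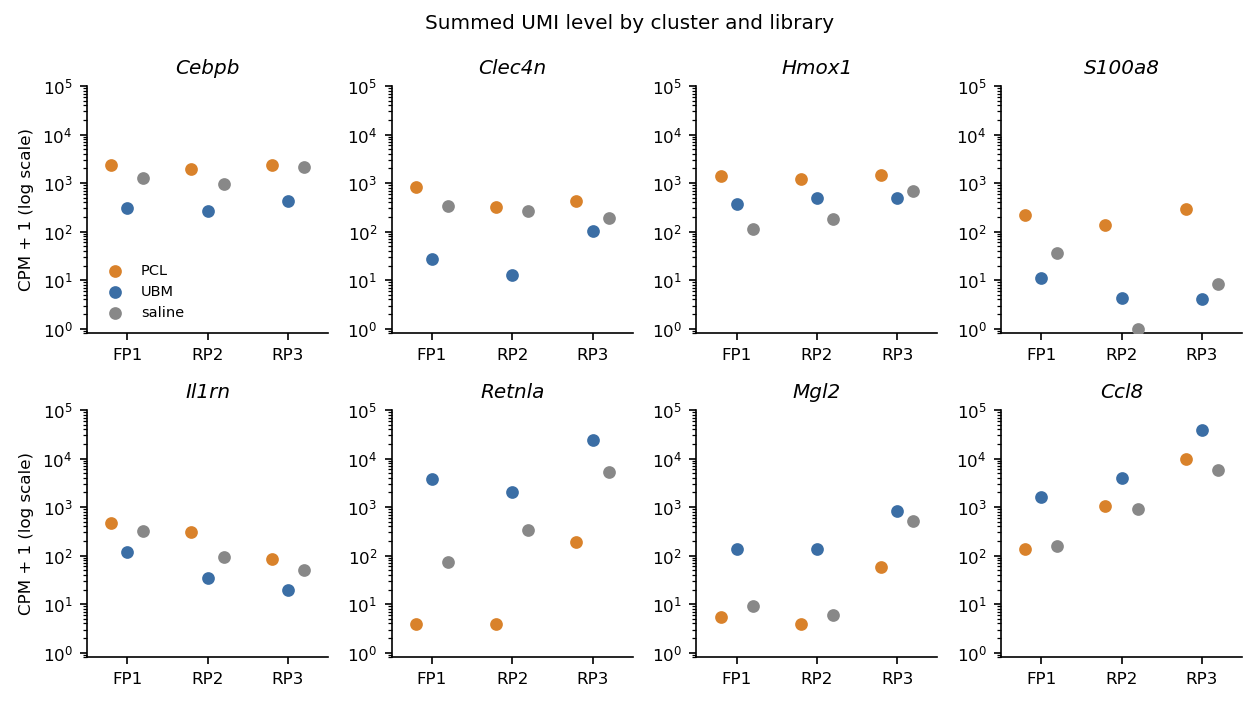
Dots give CPM plus 1 on a log axis for 8 genes in PCL, UBM and saline cells of each cluster, with no error drawn as there is 1 library each. Cebpb, Clec4n, Hmox1, S100a8 and Il1rn are highest with PCL, Retnla, Mgl2 and Ccl8 are highest with UBM, and S100a8 in saline RP2 cells sits at the axis floor because it had 0 UMIs.

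S100a8 and S100a9, which encode the 2 subunits of calprotectin and are abundant in neutrophils, had wide intervals because few UBM cells held a UMI. S100a8 (chr3:90668978-90670035, plus strand) stood at 219 CPM with PCL and 10.1 CPM with UBM in FP1, at 137 and 3.35 CPM in RP2, and at 293 and 3.09 CPM in RP3, 21.7-fold (11 to 50.4), 41.0-fold (21.8 to 82.6) and 94.7-fold (31.9 to 464) apart. S100a9 (chr3:90692632-90695721, minus strand) had log2 ratios of 3.59, 2.32 and 4.02. In RP3 1 cell gave 51.2% of the S100a8 UMIs with PCL, and 146 CPM remained without it. The PCL library also held 45 cells of F2, which stood at 32256 CPM for S100a8 and 22211 CPM for S100a9, against 8 such cells with UBM. S100a8 in PCL cells of FP1, RP2 and RP3 amounted to 0.679%, 0.426% and 0.908% of its F2 level. The ratio of S100a8 to S100a9 UMIs in PCL cells was 1.74 (1.59 to 1.90) in FP1, 2.14 (1.26 to 3.72) in RP2, 1.57 (1.23 to 2.02) in RP3 and 1.45 (1.40 to 1.5) in F2. The part of RNA set free from F2 cells in these values was not tested. Hbb-bs, a haemoglobin chain of red cells, had log2 ratios of 3.79, 2.59 and 2.77, with 58.1% of its PCL UMIs in FP1 in 1 cell and 68.6 CPM left without it. Its level without the top cell ran from 30.1 to 72.7 CPM over the 8 PCL clusters. The erythroid list moved with Hbb-bs but contains it: in PCL cells of FP1 it gave 1068 of the list's 1845 UMIs.

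The remaining shared higher genes have diverse roles. Ifi204, an interferon-induced sensor, had log2 ratios of 1.35, 1.41 and 1.54, and Trim25, which activates the RNA sensor RIG-I, 1.2, 1.37 and 1.35. Sh3bp5, a regulator of Rab11, had 1.89, 1.16 and 2.08, the amino-acid transporter Slc7a8 1.38, 1.05 and 1.67, and the chromatin regulator Ankrd11 1.05, 1.22 and 1.06. AY036118, a gene model on chromosome 17, had 1.71, 1.27 and 1.49. Tsix, the antisense partner of Xist (chrX:103431517-103484957, plus strand), had 1.34, 1.57 and 1.23, whereas Xist had 0.01, −0.39 and 0.30. Nothing says whether the counting used strand, so reads of Tsix and Xist may not be told apart.

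The strongest shared difference was that of Retnla, which encodes RELM-alpha, a secreted protein induced by interleukin-4 (chr16:48842551-48844461, plus strand), the gene whose start region is shown above. Retnla stood at 2.91 CPM with PCL, 3779 CPM with UBM and 73.7 CPM with saline in FP1. In RP2 the levels were 2.92, 2038 and 339 CPM, and in RP3 190, 23642 and 5246 CPM. UBM was highest, PCL lowest and saline between them in each cluster. The PCL level was 1297-fold lower (829 to 2158) in FP1, 698-fold lower (125 to 27556, on 1 PCL UMI) in RP2 and 125-fold lower (103 to 152) in RP3. A UMI was seen in 13 of 1036 PCL and 74 of 99 UBM cells of FP1, in 1 of 58 and 466 of 640 cells of RP2, and in 14 of 92 and 182 of 200 cells of RP3. In FP1 1 UBM cell gave 46.3% of the UMIs. F2, the cluster with neutrophil markers, comes nearest to a cell type without the gene. There 1 of 45 PCL cells (2.22%, median 4373 UMIs) and 5 of 8 UBM cells (62.5%, 24.5 to 91.5%, median 4438.5 UMIs) held a UMI, at 4.03 and 2341 CPM. The 8 UBM cells of F2 separate little: that interval also holds the UBM shares of FP1 (74.7%), RP2 (72.8%) and RP3 (91%), and these cells carried macrophage markers at 14946 CPM beside neutrophil markers at 8464 CPM. Over the UBM clusters the level ran from 528 CPM in RP1 to 23642 CPM in RP3, a 44.7-fold range. The part of free RNA in the UBM values was not tested.

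Mgl2, a galactose-binding lectin of alternatively activated macrophages (chr11:70130329-70137550, plus strand), followed Retnla. Its levels were 4.45 CPM with PCL, 136 CPM with UBM and 8.19 CPM with saline in FP1, 2.92, 137 and 4.84 CPM in RP2, and 58.6, 813 and 506 CPM in RP3. PCL was lowest and UBM highest in all 3 clusters, by 30.6-fold (20.2 to 47.9), 46.8-fold (8.37 to 1853, on 1 PCL UMI) and 13.9-fold (9.85 to 20.2). Ccl8, a chemokine for monocytes and lymphocytes (chr11:82115185-82116799, plus strand), was abundant in RP3. It stood at 139 CPM with PCL, 1613 CPM with UBM and 158 CPM with saline in FP1, at 1046, 4009 and 925 CPM in RP2, and at 9771, 37981 and 5893 CPM in RP3. UBM stood above both other libraries in every cluster, by 11.6-fold (10.6 to 12.6), 3.83-fold (3.45 to 4.27) and 3.89-fold (3.78 to 4.0) over PCL.

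The other shared lower genes carry metabolic and growth roles. Slc7a2, which imports arginine and other cationic amino acids, stood at 24.2 against 198 CPM (PCL against UBM) in FP1, 20.5 against 61.1 CPM in RP2 and 1.72 against 66.0 CPM in RP3. Igf1, the growth factor of muscle regeneration that also defines RP2, stood at 210 against 587 CPM, 371 against 796 CPM and 357 against 807 CPM. Its folds, 2.80-fold lower (2.51 to 3.11), 2.15-fold (1.80 to 2.58) and 2.26-fold (1.94 to 2.65), were of like size in the 3 clusters. Gatm, the first enzyme of creatine synthesis, had log2 ratios of −2.15, −1.29 and −1.06, the peptidase gene Anpep −1.08, −1.11 and −1.31, and Tnip3, an inhibitor of NF-kB signalling, −1.02, −1.41 and −1.36. Hist1h2ap, a replication-dependent histone, was 12.2-fold (10.1 to 14.7), 11.6-fold and 12-fold lower. It belongs to a family of near-identical histone genes, so its counts are uncertain. In RP3 1 UBM cell gave 76% of its UMIs, and the log2 ratio of Hist1h2ap in RP3 was −2.60, −1.21 without that gene's top cell and −0.65 with clusters assigned again. Tnip3 in FP1 came to 0.22 with clusters assigned again. Tnip3 left the shared set under 5 alternatives, Hist1h2ap under 4, Gatm and Anpep under 3 each, and Igf1 and Slc7a2 under 2 each. Arg1, arginase 1, missed the rule by its value in FP1: it stood at 1512 against 2949 CPM there, 1105 against 2462 CPM in RP2 and 72.4 against 931 CPM in RP3. Saline was far below both, at 107, 19.4 and 3.72 CPM.

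Alternative activation was the list with the lowest median in RP2 and RP3, after cell cycle in FP1. In FP1 9 of its 15 measured genes stood at least 2-fold lower with PCL and none higher, in RP2 6 of 14 lower and 1 higher, and in RP3 8 of 16 lower and 1 higher. Of 13 members measured in every cluster, 9 lay below 0 in all 3, beside 14.3% of the 6475 genes measured at 10 CPM in every cluster. The list medians were −1.38, −0.85 and −0.98 against 0.04, 0.07 and 0.18 for all genes. Clec10a, a lectin related to Mgl2, had −1.38, −2.11 and −0.43. Mrc1, the mannose receptor, was lower in FP1 (−1.09) and RP2 (−0.79) and level in RP3 (0.03), where it stood at 1535 against 1502 CPM. Chil3, a chitinase-like protein, had −2.60, −0.29 and −0.78, with 46.2% of its UBM UMIs in FP1 in 1 cell. Tgm2, transglutaminase 2, was the exception, with 0.54, 2.31 and 1.29. Retnla, Mgl2, Igf1 and Arg1 are members of this list, which was written with earlier results of these data known.

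**Figure D3:**
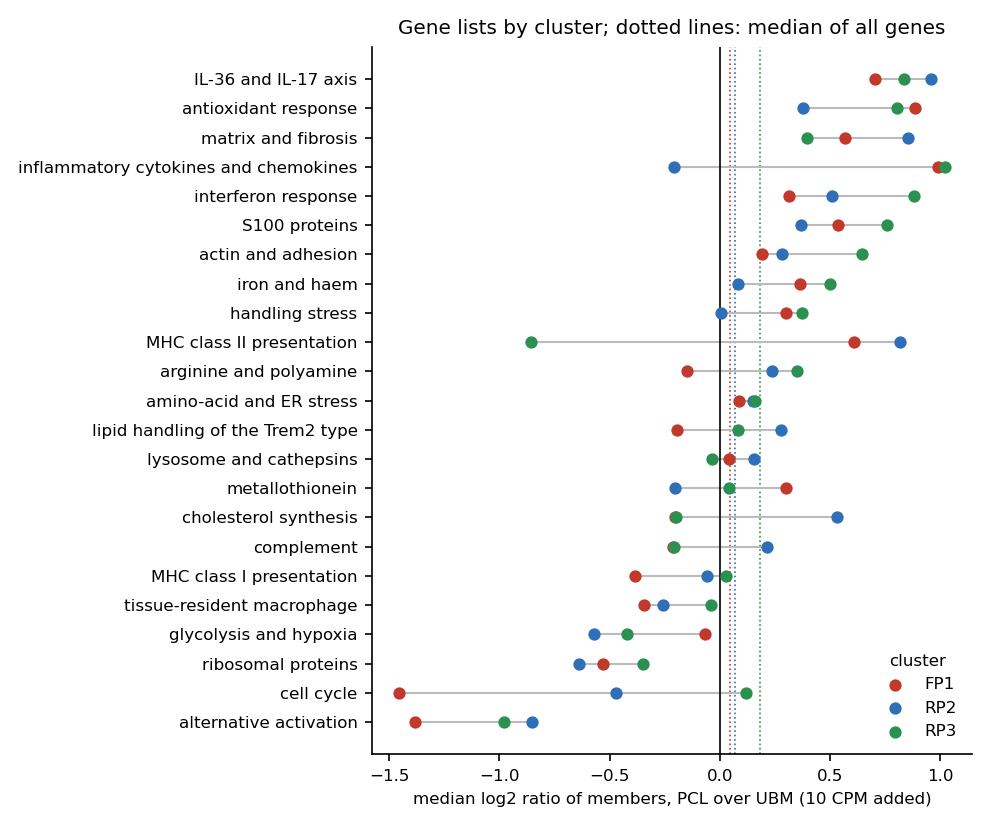
Each dot is the median log2 ratio of PCL over UBM (10 CPM added) of 1 of 23 gene lists in 1 cluster (FP1 red, RP2 blue, RP3 green), and the dotted vertical lines give the median of all genes in that cluster. Alternative activation lies between −1.38 and −0.85, antioxidant genes lie above the median of all genes in each, and MHC class II lies on opposite sides, at 0.61 and 0.82 against −0.86.

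Inflammatory cytokines and chemokines differed in FP1 and RP3 in a way that RP2 did not share. In FP1 10 of its 21 measured genes stood at least 2-fold higher with PCL and 1 lower (median 0.99), and in RP3 11 of 21 and 2 (median 1.02), but in RP2 3 of 20 were higher and 3 lower (median −0.21). Ccl3, a macrophage chemokine, stood at 122 against 40.3 CPM in FP1 and 370 against 122 CPM in RP3, but at 84.7 against 95.9 CPM in RP2. Tnf had log2 ratios of 1.08, 0.26 and 2.04, and Il18 1.42, 0.77 and 2.05. Cxcl2, which attracts neutrophils, was 2.06-fold higher (1.94 to 2.20) in FP1 and 1.55-fold higher (1.41 to 1.70) in RP3, while in RP2 it was at 1449 CPM with PCL and 2866 CPM with UBM (log2 −0.98). Ccl2, which attracts monocytes, stood apart in RP3 alone, at 2161 against 830 CPM, with −0.11 and −0.33 in FP1 and RP2. No difference between clusters was tested, here or below.

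The series title concerns interleukin-36 gamma and interleukin-17, and their genes were scarce in these clusters. Il1f9, which encodes interleukin-36 gamma, was seen in 14 of 1036 PCL cells of FP1 (1.35%, 0.741 to 2.26%), at 2.61 CPM, and in 1 of 640 UBM cells of RP2. In the other 4 sets of cells no UMI was seen, which allows a share of cells with a UMI, not of cells expressing the gene, of up to 5.17% of PCL cells in RP2 and 3.26% in RP3, and 3.03% of UBM cells in FP1 and 1.5% in RP3. In PCL cells of F2 it was seen in 26 of 45 (57.8%), at 371 CPM. The FP1 level is 0.703% of that of F2, beside 0.679% for S100a8. Il17ra, a chain of the interleukin-17 receptor, stood at 42.6 against 7.56 CPM in FP1, 20.5 against 4.64 CPM in RP2 and 25.8 against 10.3 CPM in RP3. All these levels are below the 50 CPM minimum, and 6 of 99 UBM cells of FP1 held a UMI. In saline cells an Il17ra UMI was seen in 15 of 72 in FP1, 6 of 38 in RP2 and 8 of 68 in RP3. Tgfb1 had log2 ratios of 0.39, −0.30 and −0.32. Over the IL-36 and IL-17 list, 2 of 5 measured genes were at least 2-fold higher in FP1, 2 of 5 in RP2, and 1 of 6 with 1 lower in RP3. The summed list stood at 787 CPM with PCL, 279 CPM with UBM and 854 CPM with saline in FP1. In RP2 these sums were 397, 393 and 814 CPM, and in RP3 817, 574 and 1392 CPM. Saline was thus highest in each cluster.

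Interferon-response genes stood higher with PCL to an extent that grew from FP1 to RP3. At least 2-fold higher were 4 of 26 measured members in FP1, 4 of 23 in RP2 and 14 of 31 in RP3, and none was as much lower (medians 0.31, 0.51 and 0.88). Of 23 measured in all clusters, 15 lay above 0 in every one, beside 30.5% of all genes so measured. Isg15, a ubiquitin-like protein, stood at 68.5 against 58.0 CPM in FP1, 78.9 against 25 CPM in RP2 and 227 against 66.0 CPM in RP3. Irf7, a transcription factor of the interferon response, had 0.32, 1.46 and 1.32, and Ifit3 was at 75.8 against 8.24 CPM in RP3. Genes of the antioxidant response also stood higher: 7 of 19, 2 of 19 and 8 of 20 were at least 2-fold higher and 1, 0 and 0 lower (medians 0.89, 0.38 and 0.81). Prdx1, a peroxiredoxin, was at 4585 against 2085 CPM in FP1, 2937 against 1484 CPM in RP2 and 2214 against 745 CPM in RP3. Slc7a11, the cystine importer that also defines FP1, had log2 ratios of 2.29, 0.78 and 1.11, while Gpx4, a lipid peroxidase, had −1.06, −1.0 and −0.72.

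Matrix and fibrosis genes were split within the list. In FP1 8 of 30 were at least 2-fold higher with PCL and 6 lower, in RP2 12 and 3 of 28, and in RP3 8 and 1 of 27 (medians 0.57, 0.85 and 0.40). Spp1, osteopontin, which marks FP1 (chr5:104435118-104441050, plus strand), was at 8918 CPM with PCL and 7202 CPM with UBM in FP1. It stood at 7480 against 1922 CPM in RP2, 3.89-fold (3.72 to 4.07), and at 1347 against 329 CPM in RP3. Thus the smallest difference lay in the cluster it marks, where 1 UBM cell gave 32.9% of the UBM UMIs of Spp1. Tgfbi, a TGF-beta-induced matrix protein, had 1.22, 1.38 and 0.36, the membrane protease Mmp14 1.13, 2.06 and 0.00, and Col3a1, a fibrillar collagen, 1.35, 1.01 and 1.06 at no more than 51.7 CPM. Mmp9, a gelatinase, lay the other way, at 32.0 against 247 CPM in FP1 and at 0 against 30.4 CPM in RP2. Timp1, an inhibitor of such proteases, had −1.26, −1.29 and −0.72. Cd9, a tetraspanin, was at 1263 against 644 CPM in FP1, 622 against 301 CPM in RP2 and 89.6 against 56.7 CPM in RP3. Fibroblast markers were also higher, at 79.3 against 25.2 CPM in FP1, 73.1 against 29.6 CPM in RP2 and 112 against 69.0 CPM in RP3. Col1a2 and Col3a1 belong to both lists, so the lists are not separate measures. The part of fibroblast RNA was not tested.

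Cell-cycle genes were lower with PCL mainly in FP1. There 25 of 32 measured genes stood at least 2-fold lower and none higher (median −1.45), against 7 of 21 lower in RP2 (median −0.47) and 1 of 19 in RP3, with 1 higher. The summed list stood at 2165 CPM with PCL, 5593 CPM with UBM and 3675 CPM with saline in FP1, where 10 of the 99 UBM cells gave 65.2% of the list's UMIs. Top2a, a topoisomerase of dividing cells, was at 11.8 against 107 CPM in FP1. At least 2 of 5 proliferation genes were seen in 18 of 1036 PCL cells (1.74%, 1.03 to 2.73%) and 15 of 99 UBM cells (15.2%, 8.74 to 23.8%) of FP1. With every cell thinned to 2500 UMIs, and shallower cells left out, these were 6 of 946 and 7 of 89. Glycolysis and hypoxia genes were lower in RP2 and, less so, in RP3. In RP2 5 of 29 were at least 2-fold lower and 1 higher (median −0.57), and the factor Hif1a was the higher one, at 254 against 76.3 CPM. In RP3 2 of 27 were lower and 0 higher (median −0.42), and in FP1 0 of 28 lower and 1 higher (median −0.07). Of 27 measured in every cluster, 13 lay below 0 in all 3, beside 14.3% of all genes so measured.

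Only 2 of 2636 genes (0.0759%) were at least 2-fold higher in 1 cluster and at least 2-fold lower in another. Mmp12, the macrophage elastase (chr9:7344381-7369499, plus strand), stood at 1057 CPM with PCL, 2302 CPM with UBM and 471 CPM with saline in FP1, at 789, 902 and 82.4 CPM in RP2, and at 68.9, 16.5 and 3.72 CPM in RP3. PCL was thus 2.18-fold lower (2.07 to 2.29) in FP1 and 4.18-fold higher (2.29 to 8.0) in RP3, where the level was low in all libraries. H2-Ab1, a chain of the MHC class II molecule that presents antigen to CD4 T cells (chr17:34257689-34269419, plus strand), stood at 1018 CPM with PCL, 611 CPM with UBM and 2938 CPM with saline in FP1. In RP2 the levels were 561, 221 and 3318 CPM, and in RP3 863, 1814 and 2297 CPM. Saline was highest in each cluster, while PCL was 2.54-fold above UBM (2.16 to 2.97) in RP2 and 2.10-fold below it (1.90 to 2.33) in RP3. In RP3 the share of cells with an H2-Ab1 UMI went against the level: 79 of 92 PCL cells (85.9%, median 5580 UMIs) and 113 of 200 UBM cells (56.5%, median 4193.5 UMIs), so no order is read from that share. Other class II genes lay the same way without reaching 2-fold in both directions. Cd74, the invariant chain, had log2 ratios of 0.71, 0.68 and −1.24, H2-Aa 0.68, 1.30 and −0.76, and H2-Eb1 0.54, 0.88 and −0.95. Of the 10 class II presentation genes 8 had mixed signs, beside 55.2% of all genes measured at 10 CPM. Dendritic-cell markers stood at 65.5 against 182 CPM in RP3, 11.8 against 63.0 CPM in FP1 and 11.7 against 43.8 CPM in RP2, and their part in the class II levels was not tested. Under a 1.5-fold rule 21 genes lay in opposite directions, among them Fn1, fibronectin, with 0.50, 0.67 and −1.05, and Stmn1, a tubulin regulator of dividing cells, with −2.82, −1.62 and 0.85.

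The 3 clusters took very unequal shares of the 2 libraries, which can set a difference over pooled cells without any difference inside a cluster. FP1, RP2 and RP3 held 87.6%, 4.60% and 7.80% of the PCL UMIs of the 3 clusters and 14.1%, 68.8% and 17.2% of the UBM UMIs. Over the pooled cells 160 of 2749 genes (5.82%) were at least 2-fold higher with PCL and 84 (3.06%) lower. A mix part was computed for each gene by giving every cluster the mean of its PCL and UBM level and weighting it by each library's shares. A strict rule was met by 1 higher gene (0.0364%) and 3 lower genes (0.109%). It asked for a mix part of at least 2-fold and a log2 ratio within 0.5 of 0 in at least 2 clusters and short of 2-fold in every one. Ccl24, which attracts eosinophils (chr5:135569937-135573049, minus strand), stood at 613 CPM with PCL and 251 CPM with UBM over the pooled cells, a log2 ratio of 1.25. Within the clusters it stood at 666 against 676 CPM, 67.2 against 81.4 CPM and 331 against 584 CPM, so no cluster had it higher with PCL, and its mix part was 1.44. Sepp1, a selenium carrier, was the reverse case, at 737 against 2120 CPM pooled (log2 −1.51, mix part −1.20). Its levels within clusters were 352 against 344 CPM, 1134 against 1302 CPM and 4833 against 6843 CPM. Wwp1, a ubiquitin ligase, and Fcgrt, the neonatal Fc receptor, had pooled log2 ratios of −1.50 and −1.54 and mix parts of −1.11 and −1.06.

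**Figure D4:**
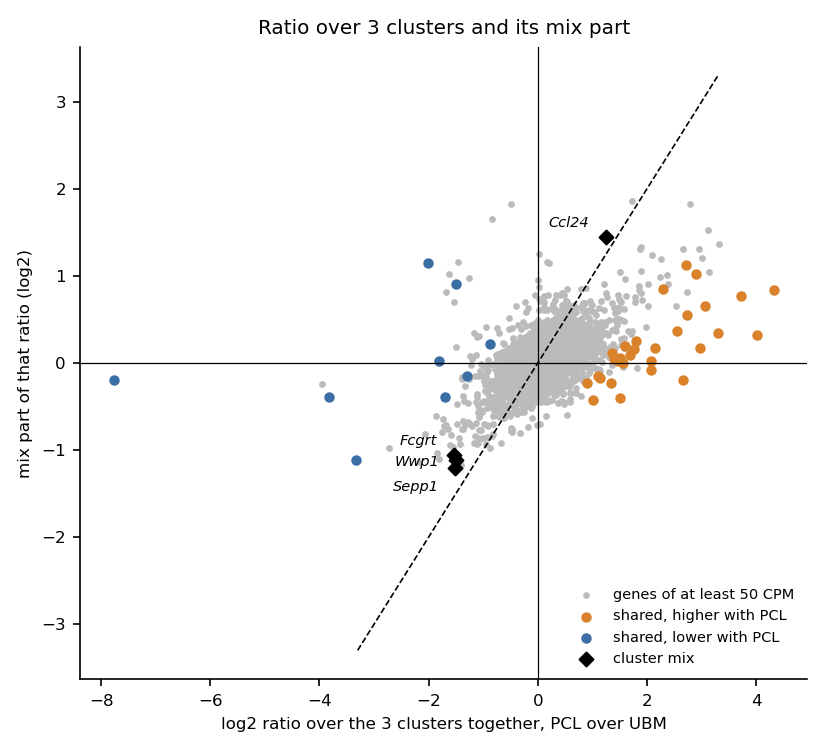
The x axis gives each gene's log2 ratio of PCL over UBM over the pooled cells of the 3 clusters (10 CPM added) and the y axis its mix part, the log2 ratio that the unequal cluster shares alone would give. On the dashed line both are equal. Orange and blue dots are the shared higher and lower genes, and the black diamonds are Ccl24, Sepp1, Wwp1 and Fcgrt, the genes that met the strict mix rule.

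Most pooled differences were met by a difference inside at least 1 cluster. Without ribosomal and mitochondrial genes, 29 of the 159 genes higher over the pooled cells were at least 2-fold higher in all 3 clusters, 31 in 2, 59 in 1 and 40 in none. Of the 83 lower genes these were 8, 13, 40 and 22. The mix part took a median of 27.6% of the pooled log2 ratio among the higher genes and 40.1% among the lower ones. It had the sign opposite to the pooled ratio in 14 of 159 and 16 of 83.

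The shared genes were then followed into the clusters that had too few cells of 1 library for the main comparison, as a description over libraries the choice had already used. In F1 (455 PCL and 43 UBM cells), all 30 higher genes lay above 0 and 26 by at least 2-fold, beside 6.44% of all genes there, and all 9 lower genes lay below 0, 7 by at least 2-fold, beside 3.74%. In RP1 (37 and 574 cells) the counts were 30 and 26 of 30 beside 8.48%, and 9 and 8 of 9 beside 4.66%. In F2 (45 and 8 cells) they were 28 and 21 beside 16.5%, and 8 and 5 beside 24%. In R1 (14 and 289 cells) they were 28 and 18 beside 13.8%, and 8 and 6 beside 6.35%. In R3 (16 and 173 cells) they were 27 and 19 beside 11%, and 9 and 7 beside 5.48%. All clusters come from the same 2 libraries, so a trait of a library and a trait of the material cannot be told apart. Retnla in UBM cells outside the 3 clusters ran from 528 CPM in RP1 to 17326 CPM in R2, and in PCL cells from 0 in R3 to 722 CPM in R1.

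**Figure D5:**
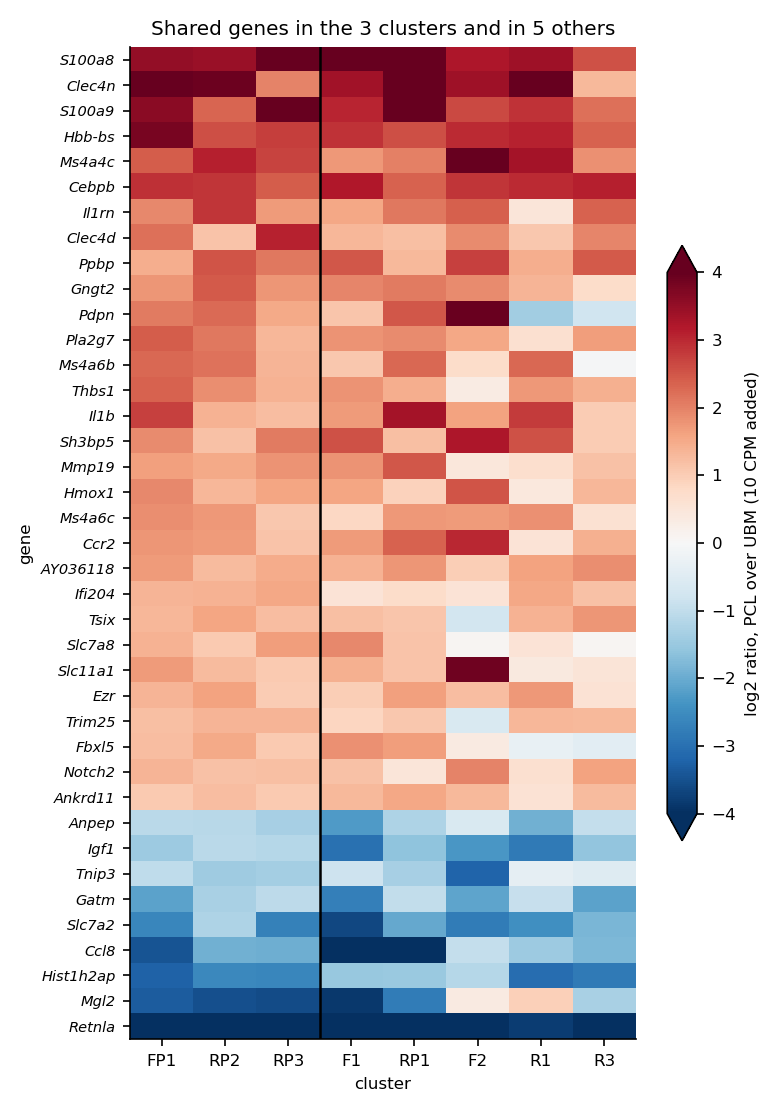
Rows are the 39 shared genes and columns the 3 compared clusters followed by F1, RP1, F2, R1 and R3, and colour gives the log2 ratio of PCL over UBM (10 CPM added), capped at 4 either way. The 30 higher genes keep one colour in all columns but for 2 genes in F2, 2 in R1 and 3 in R3.

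Saline cells did not side with 1 material for the whole set. In FP1 saline lay nearer to PCL for 17 of the 30 higher genes and nearer to UBM for 13, and in RP3 for 11 and 19. It lay between both for 16 genes in FP1 and 17 in RP3. For the 9 lower genes saline was nearer to PCL for 7 in FP1 and 7 in RP3. It lay between both for 7 of these 9 in FP1 but for 3 in RP3, and below both for 2 in FP1 and 6 in RP3. RP2, with 38 saline cells, was not counted. In all 3 clusters Retnla, Mgl2 and Ccl8 stood highest with UBM, and Cebpb and Clec4n had saline between the materials.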

How the data were processed

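Macrophages were profiled with droplet single-cell RNA sequencing (10x Genomics 3' v2 libraries, per the labels' protocols). The authors deposited raw UMI counts per gene and cell, made with Cell Ranger, and cluster names from Seurat 2 run on the pooled conditions, per the submitters' processing notes. Those notes list the human build hg38 although the gene symbols are mouse. How cells and genes were filtered and doublets treated is not given in the sources used here. No doublet caller was run. Condition names in the cell table were matched to samples by meaning: ECM to UBM, PBS to saline and Synthetic to PCL. The libraries shared 6 cell barcodes, 5 of them between PCL and UBM and 1 of those inside the 3 clusters.

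UMIs were summed per library and cluster and scaled to CPM. Exact 95% intervals (conditional binomial for ratios, Clopper-Pearson for shares) cover counting error only. The members and gene lists were chosen with earlier results of these data known. Named genes were up to 15 shared genes each way by their weakest cluster, 12 opposite and 6 mix genes each way by size, the 5 highest and 5 lowest of each cluster, the 2 highest and 2 lowest of each list, and a set named at any value. The other shared genes, and further list members given as examples, were chosen after their values were seen. The scripts were tested on simulated data. Alternatives were trimmed-mean scaling (edgeR 4.0.16 in R 4.3.3), median-of-ratios scaling (DESeq2 1.42.0), totals without ribosomal protein genes and Malat1, equal weight for cells, other pseudocounts, minimums and folds, cells with over 10% mitochondrial UMIs left out, each gene's top cell left out, cells thinned to 2500 UMIs, clusters assigned again (scikit-learn 1.9.0) and all clusters in the mix. Neither edgeR nor DESeq2 was used for a test. Python 3.11.15 with numpy 2.4.6, scipy 1.17.1 and pandas 2.3.3 was used. Gene positions are from GENCODE vM21 (GRCm38).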

Additional observations from a re-analysis of the deposited data

Results flagged for a closer look

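The effect of PCL against UBM lay in opposite directions in different clusters for Mmp12 and H2-Ab1. Mmp12, the macrophage elastase, had a log2 ratio of −1.12 in FP1 and 1.58 in RP3. H2-Ab1, an MHC class II chain, had 1.3 in RP2 and −1.06 in RP3. With 1 library for each condition the difference between the clusters was not tested.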

How the results depend on the processing

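No paired analysis was possible because there is 1 library per condition, and for the same reason no replicate could be left out. Of the values of named genes recomputed under the alternatives, 2926 moved by no more than their counting interval, 447 moved by more and 2 that were past 2-fold changed sign. Counting small differences too, 117 values of 60 gene and cluster pairs changed sign. The 2 past 2-fold were, with clusters assigned again, Egr1 in RP2 at 0.16 (−1.27 in the main analysis) and Tnip3 in FP1 at 0.22 (−1.02). In that clustering 38 of the 99 UBM cells of FP1 and 15 of the 58 PCL cells of RP2 kept their cluster. It gave 267 genes past 2-fold in RP2, 17 shared higher, 5 shared lower and 12 opposite genes, and 7 higher and 21 lower mix genes. Scaling by the trimmed mean or by the median of ratios kept 23 of the 30 shared higher genes and lost Slc11a1, Fbxl5, Ankrd11, Slc7a8, Ccr2, Ezr and Ms4a6c. With trimmed-mean scaling there were 2 higher mix genes. Totals without ribosomal protein genes and Malat1 gave 4 opposite genes, as did a pseudocount of 1 CPM. With each cell counted alike there were 4 opposite, 2 higher mix and 5 lower mix genes. Without a minimum level 420, 401 and 375 genes passed 2-fold in FP1, RP2 and RP3, 8 were opposite and 2 were higher mix genes. With a minimum of 100 CPM these were 152, 104 and 116 genes, with 15 shared higher and 1 opposite. Without each gene's top cell there were 4 opposite and 2 higher mix genes. Thinning to 2500 UMIs gave 375 genes in RP2 and 358 in RP3, 4 shared lower and 5 opposite. With all clusters in the mix, 0 higher and 0 lower genes met the mix rule. At 1.5-fold there were 98 shared higher, 28 shared lower and 21 opposite genes. Other counts stayed within 1.5 times the main count. The thin side of each cluster limits it: 99 UBM cells in FP1 and 58 PCL cells in RP2. Among genes at least 2-fold lower in FP1, the median gene had 13.8% of its UBM UMIs in 1 cell, and 12 of 84 had over 25% there.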

Other observations

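Genes with wide differences outside the shared set included eosinophil-associated ribonucleases, which alternatively activated macrophages can also make. Rnase2a stood at 0.153 CPM with PCL and 75.6 CPM with UBM in FP1 and at 1.72 against 722 CPM in RP3. Both PCL values rest on 1 UMI. In FP1 11 of 99 UBM cells held a UMI of Rnase2a, and 1 cell gave 50% of them. Ear2 had no PCL UMI in RP3 and 89.7 CPM with UBM, at least 17.3-fold lower against a floor of 3 counts. Cd5l, a scavenger-like protein of tissue macrophages that leads RP2, was at 2.92 CPM with PCL (1 UMI) and 121 CPM with UBM there. The metallothionein Mt2, which binds zinc and copper, was 5.65-fold lower with PCL (5.16 to 6.18) in FP1 and 6.13-fold lower (4.69 to 8.17) in RP2, but 1.63-fold higher (1.45 to 1.83) in RP3.

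Actin and adhesion genes had medians of 0.19, 0.28 and 0.64 in FP1, RP2 and RP3, and 17 of 27 measured in all clusters lay above 0 in each, beside 30.5% of all genes measured at 10 CPM. Actb, cytoplasmic actin, stood at 17526 against 12497 CPM, 20416 against 6731 CPM and 12389 against 4487 CPM. Cd44, the hyaluronan receptor, had log2 ratios of 1.08, 0.92 and 1.42. MHC class I genes had no member at least 2-fold apart among 16, 15 and 16 measured. Ribosomal protein genes had medians of −0.53, −0.64 and −0.35.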
